A study of Homo sapiens with 15 samples.

Results

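The genes described here are 43 genes of the lysosome and of the control circuit around it, matched by symbol through Ensembl gene IDs out of 60664 gene IDs counted per library. They comprise the 3 MiT/TFE transcription factors MITF, TFEB and TFE3, 5 genes of the Rag GTPase and folliculin branch (RRAGC, RRAGD, FLCN, FNIP1 and FNIP2), the glycoprotein gene GPNMB, 7 genes of lysosomal membrane proteins and lipid handling, 9 protease genes, 12 genes of glycosidases, sulfatases and a lipase, 5 genes of the proton pump and the autophagy receptor gene SQSTM1. Of these, 42 passed the filter on low counts among the 16210 genes tested. ATP6V0D2, a proton pump subunit gene, had 0 counts in all 15 libraries.

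RNA was sequenced from T47D, a luminal, oestrogen receptor-positive human breast cancer cell line, in 5 groups of 3 biological replicates each. Cells of the 4-hydroxytamoxifen-resistant line (TR01, here TR) received 5 µM erdafitinib plus 1 µM 4-OHT (TR combination), 5 µM erdafitinib (TR erdafitinib), 1 µM 4-OHT (TR 4-OHT) or vehicle alone (TR vehicle). Cells of the parental line (PAR01, here PAR) received vehicle alone (PAR vehicle). The vehicle, DMSO, was at 0.05% in all 5 groups. Each treatment lasted 120 hours and followed 24 hours of seeding and 48 hours in phenol red-free medium with 2% charcoal-stripped serum and 8 µg/mL insulin. 4-OHT is the form of tamoxifen that blocks the oestrogen receptor in cells, and erdafitinib inhibits the FGFR family of receptor tyrosine kinases. The TR line had been kept in 1 µM 4-OHT and 2% stripped serum, and the PAR line in 5% serum without 4-OHT, so the resistant state and the history of medium and drug cannot be told apart. Each state is 1 cell line. The study asked what FGFR inhibition does to endocrine resistance, per its title.

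The lysosome degrades macromolecules with acid hydrolases, holds its acid pH with a proton pump, and is the platform on which mTORC1 senses amino acids. Heterodimers of Rag GTPases (RagA or RagB with RagC or RagD) recruit mTORC1 to the lysosome. Folliculin (FLCN) with a partner, FNIP1 or FNIP2, is the GTPase-activating protein for RagC and RagD. In that state the Rags present TFEB and TFE3 to mTORC1, which phosphorylates them and keeps them in the cytoplasm. When this stops, the MiT/TFE factors enter the nucleus and bind E-box motifs, in lysosomal gene promoters often as the palindrome called CLEAR, and the related M-box. RRAGD, FLCN, FNIP2 and GPNMB are themselves known target genes of these factors. The libraries measure RNA, not the location or phosphorylation of any factor.

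Library totals ran from 6946684 to 28717380 counts (median 22304029), with PAR vehicle 2 and TR 4-OHT 2 the shallowest. All 9 luminal epithelial markers passed the filter. Their summed level was 6727 to 7663 CPM (counts scaled to library size) in PAR vehicle libraries and 3076 to 4814 CPM in TR vehicle libraries. The other TR groups lay within the TR vehicle range, so these markers were lower in the resistant line. The summed level of 12 macrophage markers reached at most 1.82 CPM in any library. Replicates differed along 1 shared direction, the first principal component of the deviations from group means, which held 49.5% of the within-group variance, with PAR vehicle 3 at -0.46 and TR vehicle 1 at 0.43 as its ends. The genes described here moved with it: their median deviation from the group mean was -0.35 (log2) in TR vehicle 1 and 0.16 in PAR vehicle 3. Mitochondrial genes held 14.52% of the counts in PAR vehicle 3, the lowest share, and 22.6% in TR vehicle 1. The highest share, 25.71%, was in PAR vehicle 1, which stood at 0.041 on that direction. A link between this share and the direction was not tested.

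Promoter sequences are shown for 4 genes, GPNMB and TPP1 because their RNA changed with erdafitinib, and LAMP1 and MCOLN1 because they carry the E-box type of motif and were not called in any comparison, a choice made after their values were seen. The windows hold 250 bases before and 50 bases after the start that RefSeq annotates on GRCh38.p14, and are written 5′ to 3′ in the direction of the gene. Capitals mark the motif TCATGTG, read on either strand, in GPNMB and TPP1, and the motif TCACGTG, read on either strand, in LAMP1 and MCOLN1. The second capitalised run of MCOLN1 lies within a CLEAR palindrome.
GPNMB, chr7:23246525-23246824, plus strand: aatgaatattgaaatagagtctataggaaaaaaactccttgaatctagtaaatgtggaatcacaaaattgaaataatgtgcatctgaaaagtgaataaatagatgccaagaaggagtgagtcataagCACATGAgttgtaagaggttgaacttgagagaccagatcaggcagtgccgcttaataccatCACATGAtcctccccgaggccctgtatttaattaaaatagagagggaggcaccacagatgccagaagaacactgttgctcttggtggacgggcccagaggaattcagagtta
TPP1, chr11:6619373-6619672, minus strand: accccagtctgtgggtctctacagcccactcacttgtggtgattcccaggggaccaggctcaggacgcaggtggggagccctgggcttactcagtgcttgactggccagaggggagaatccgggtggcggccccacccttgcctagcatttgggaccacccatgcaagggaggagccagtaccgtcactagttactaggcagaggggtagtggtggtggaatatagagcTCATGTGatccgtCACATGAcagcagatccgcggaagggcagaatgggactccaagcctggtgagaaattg
LAMP1, chr13:113296989-113297288, plus strand: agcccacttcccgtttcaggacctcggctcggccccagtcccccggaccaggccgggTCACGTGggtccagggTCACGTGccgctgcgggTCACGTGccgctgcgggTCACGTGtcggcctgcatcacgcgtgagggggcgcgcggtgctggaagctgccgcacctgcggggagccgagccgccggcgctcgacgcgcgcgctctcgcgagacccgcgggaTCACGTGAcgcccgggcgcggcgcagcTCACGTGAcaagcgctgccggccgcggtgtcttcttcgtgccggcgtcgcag
MCOLN1, chr19:7522374-7522673, plus strand: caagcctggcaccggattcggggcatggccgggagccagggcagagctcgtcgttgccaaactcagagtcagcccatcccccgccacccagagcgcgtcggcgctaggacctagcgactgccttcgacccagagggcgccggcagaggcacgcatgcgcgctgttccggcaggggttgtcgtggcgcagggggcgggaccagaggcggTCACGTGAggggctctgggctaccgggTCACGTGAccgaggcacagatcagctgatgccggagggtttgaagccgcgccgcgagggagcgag

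RefSeq promoter windows matched 31 of the 43 genes, 41 windows in all because FNIP2, LIPA, MITF, NPC2, SQSTM1 and TFEB have several starts. RRAGD is among the 12 with none. Each motif was searched on both strands, and its share is set beside that among all 35116 promoter windows of the same length. TCATGTG, the core of the M-box, was in windows of 5 genes, GPNMB, TPP1, FNIP2, CTSA and SCARB2 (5 of 41 windows, 12.2%, against 2.92% of all windows). GPNMB holds 2 such matches, beginning at -123 and -62 from its start, and TPP1 holds 2, at -21 and -8. The FNIP2 match, at -142, is in 1 of its 2 windows. These matches are a description of letters in these windows. The genes were chosen for links to the lysosome or the MiT/TFE factors, which bind such motifs. A share above that of all windows is therefore no independent result, here and for the E-box motifs below.

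The E-box CACGTG and its extension TCACGTG were each in windows of 9 genes (9 of 41 windows, 22.0%), against 7.26% and 3.71% of all windows. These 9 were ATP6V0D1, CTSA, CTSD, FNIP1, GAA, LAMP1, MCOLN1, NEU1 and RRAGC. The longer GTCACGTG was in all of those but NEU1 (19.5% of windows, against 2.40% of all), and the full CLEAR palindrome, which begins with GTCACGTG, was in GAA and MCOLN1 (4.88% against 0.353%). The longer motifs contain the shorter ones, so these counts overlap, whereas TCATGTG shares no match with CACGTG. LAMP1, which encodes an abundant glycoprotein of the lysosomal membrane, held 6 copies of CACGTG. The window of GPNMB lies wholly inside the gene as Ensembl annotates it (chromosome 7, 23235967 to 23275108). The same holds for the FNIP2 window with the TCATGTG match and for those of SCARB2 and CTSA. These windows are therefore not at the outermost start of the annotated gene.

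On a scale corrected for length (TPM, counts per exon length scaled to a common sum), the genes spanned over 3 orders of magnitude in TR vehicle cells. PSAP, the precursor of the saposins that help hydrolases degrade sphingolipids, was highest at 319 ± 156 TPM (SD, n = 3), before the proton pump subunit gene ATP6V1A at 133 ± 21.1 TPM. LIPA, which encodes lysosomal acid lipase, stood at 117 ± 8.24 TPM and LAMP2 at 93.1 ± 11.8 TPM. The lowest PSAP library, at 140.4 TPM, lay within the range of ATP6V1A (111.2 to 153.4 TPM), and all 3 PSAP libraries were above those of LIPA and LAMP2. TFE3 averaged 44.3 ± 20.7 TPM, against 1.22 ± 0.88 TPM for TFEB and 0.56 ± 0.10 TPM for MITF, so TFE3 was the most abundant of the MiT/TFE RNAs. GPNMB ranked 34th of the 43 in TR vehicle cells, at 2.59 ± 0.67 TPM, and stood at 33.8 ± 7.35 TPM in PAR vehicle cells. Exons of other genes on the same strand cover 75.9% of the exon bases of IDS, 27.3% of CTSD, 23.1% of RRAGC, 12.9% of NAGLU, 11.9% of FLCN and 11.6% of TPP1, so counts of these genes are uncertain to that extent.

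**Figure D1:**
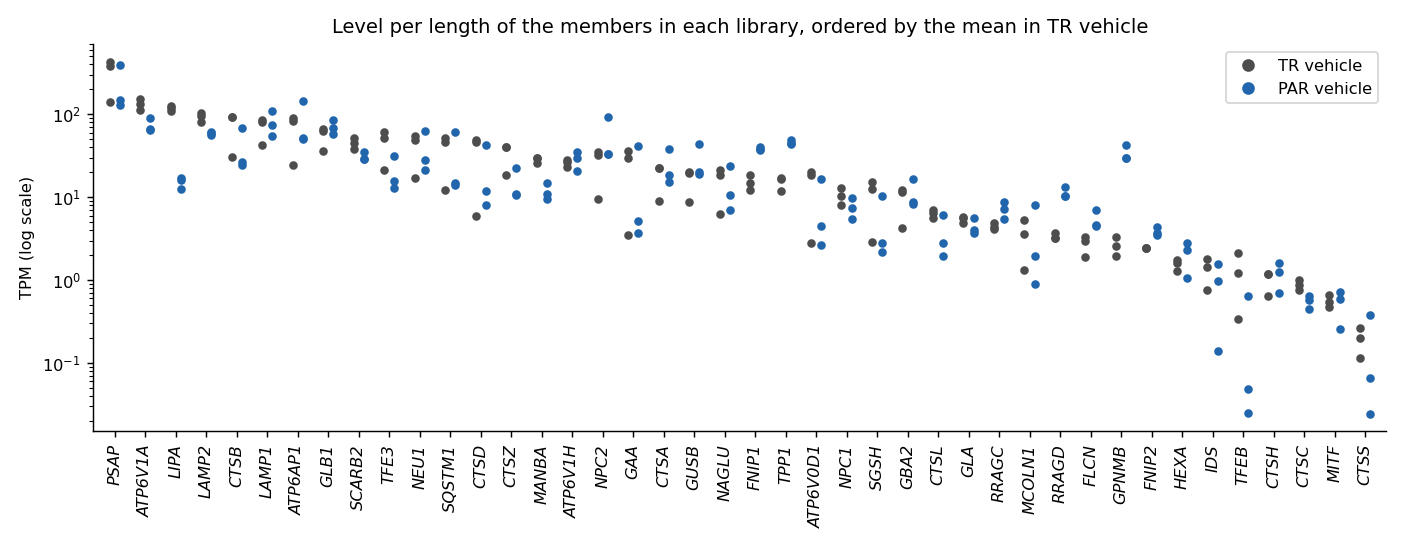
Level per length (TPM, log axis) of 42 genes in each library, TR vehicle left of PAR vehicle, ordered by the mean in TR vehicle, with 1 point a library. LIPA is among the genes higher in TR vehicle, and GPNMB, RRAGD, TPP1 and FNIP1 are among those lower. The 3 libraries of a group spread widely for genes such as GAA and CTSD.

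Spread between replicates differed widely among the genes and sets how small a change could be seen. GAA, which encodes acid alpha-glucosidase, had the widest, with a pooled within-group SD of 1.27 (log2), from 8.31, 59.5 and 63.8 CPM in the TR vehicle libraries. CTSD (1.03), ATP6V0D1 (0.95) and TFEB (0.80) came next in within-group SD. GPNMB (0.17), FNIP2 (0.17), TPP1 (0.18), RRAGD (0.18) and FLCN (0.20) were among the tightest. A change in the wide genes was therefore harder to detect than one of the same size in the tight ones.

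In TR vehicle cells, set against PAR vehicle cells, genes of the Rag and folliculin branch were lower throughout, GPNMB was the most strongly reduced, and the hydrolases split in both directions. By edgeR's quasi-likelihood test with Benjamini-Hochberg adjustment over all 16210 genes, 6 of the 42 tested genes rose and 10 fell at adjusted p under 0.05, where 19.9% of all genes rose and 16% fell. In all that is 38.1% of the 42, beside 35.9% of all genes tested, so the number called is near the background. Their median log2 fold change was 0.12 and that of all genes 0.07, and the median of the 42 was -0.12 without PAR vehicle 1 and 0.34 without PAR vehicle 3. What follows is therefore about which genes changed and in which direction, not about a change of the lysosome genes as a whole.

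GPNMB encodes a glycoprotein of lysosomes and melanosomes that is also shed from the cell surface. It had 5.26, 5.72 and 6.57 CPM in the 3 TR vehicle libraries, against 87.0, 85.0 and 80.3 CPM in the PAR vehicle libraries. The groups lie far apart, and PAR vehicle cells held 14.4 times the mean level of TR vehicle cells. The log2 fold change was -3.84 (SE 0.19, adjusted p = 2.707e-09), which placed GPNMB 39th of 16210 genes by p.

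All 5 genes of the Rag and folliculin branch fell in TR vehicle cells, with groups that did not overlap, as those of 41% of all genes did not. RRAGD, which encodes RagD, had 8.72, 6.25 and 5.51 CPM in TR vehicle cells, against 26.3, 25.3 and 21.7 CPM in PAR vehicle cells (log2 fold change -1.84, SE 0.20, adjusted p = 8.975e-06). FNIP1 had 66.9, 36.8 and 40.2 CPM in TR vehicle cells, against 150.3, 153.8 and 93.4 CPM in PAR vehicle cells (-1.47, SE 0.25, adjusted p = 3.940e-04). FLCN had 8.62, 11.0 and 11.1 CPM in TR vehicle cells, against 22.7, 21.6 and 22.3 CPM in PAR vehicle cells (-1.11, SE 0.20, adjusted p = 6.360e-04). RRAGD thus differed most, and FLCN had the narrowest spread in PAR vehicle cells. FNIP2 had 12.1, 10.1 and 9.13 CPM in TR vehicle cells, against 20.2, 18.7 and 15.2 CPM in PAR vehicle cells (-0.79, SE 0.18, adjusted p = 4.102e-03), a call lost with only these 2 groups fitted (adjusted p = 0.0636). RRAGC, which encodes RagC, had 11.3, 8.38 and 7.11 CPM in TR vehicle cells, against 18.5, 13.7 and 14.2 CPM in PAR vehicle cells (-0.79, SE 0.27, adjusted p = 0.0346). The RRAGC call was lost without PAR vehicle 1 (adjusted p = 0.125), without TR vehicle 2 (0.0990), without TR vehicle 3 (0.138), with only these 2 groups fitted (0.0915) and with no filter on low counts (0.1035).

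No MiT/TFE factor gene was called lower. TFE3 had 40.4, 81.4 and 86.6 CPM in TR vehicle cells, against 33.1, 26.5 and 42.0 CPM in PAR vehicle cells, and rose (1.03, SE 0.27, adjusted p = 8.189e-03), with TR vehicle 1 inside the range of PAR vehicle. With only these 2 groups fitted the TFE3 call was lost (adjusted p = 0.0689). TFEB had 1.03, 3.11 and 4.79 CPM in TR vehicle cells, against 0.084, 0.16 and 1.38 CPM in PAR vehicle cells. These PAR vehicle values rest on 40 counts over 3 libraries, the groups overlap, and the change of 2.16 (SE 0.82, adjusted p = 0.0530) was not called. MITF was at 0.05 (SE 0.40) and was not called.

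Among the proteases, TPP1 fell and CTSZ and CTSL rose in TR vehicle cells. TPP1 encodes tripeptidyl peptidase 1, the enzyme deficient in a childhood form of neuronal ceroid lipofuscinosis. It had 35.6, 40.4 and 37.2 CPM in TR vehicle cells, against 142.6, 142.0 and 103.4 CPM in PAR vehicle cells (-1.78, SE 0.16, adjusted p = 1.531e-06). The cathepsin gene CTSZ was at 1.06 (SE 0.22, adjusted p = 1.753e-03) and CTSL at 0.74 (SE 0.21, adjusted p = 0.0142), the CTSL call being lost with only these 2 groups fitted (adjusted p = 0.159). The other 6 protease genes were not called.

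LIPA, the acid lipase that releases cholesterol and fatty acids from lipoproteins, showed the largest rise of the 42. It had 266.8, 200.1 and 206.0 CPM in TR vehicle cells, against 30.7, 38.6 and 26.9 CPM in PAR vehicle cells (2.81, SE 0.17, adjusted p = 2.186e-08). No library of 1 group came near the other. MANBA, the lysosomal beta-mannosidase, also rose (1.15, SE 0.17, adjusted p = 1.242e-04), as did ATP6V1A, the catalytic subunit of the proton pump (0.74, SE 0.15, adjusted p = 1.266e-03).

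The remaining 3 calls, of GLB1, GUSB and NPC2, were each lost with only these 2 groups fitted (adjusted p between 0.0799 and 0.0964) and when single libraries were left out. GLB1, the lysosomal beta-galactosidase, was at -0.53 (adjusted p = 0.0167), a call lost without PAR vehicle 2 (adjusted p = 0.0704), TR vehicle 1 (0.0571) or both of the shallowest libraries (0.0632), and with no filter on low counts (0.0935). GUSB, beta-glucuronidase, was at -0.86 (adjusted p = 0.0361), lost without PAR vehicle 3 (0.147), TR vehicle 1 (0.115) or TR vehicle 3 (0.0679), and with a replicate block (0.0519). NPC2, which takes part in the export of cholesterol from the lysosome, was at -1.16 (adjusted p = 0.0451). This call was lost when any 1 of the 6 libraries was left out (adjusted p between 0.0505 and 0.185). The NPC2 call was also lost with a replicate block (0.0599) and without both of the shallowest libraries (0.0585). These 3 values are given as called in the fit of all 15 libraries. The 26 genes not called lay between -0.51 (CTSA) and 2.16 (TFEB), 17 of them within 0.5 of 0.

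**Figure D2:**
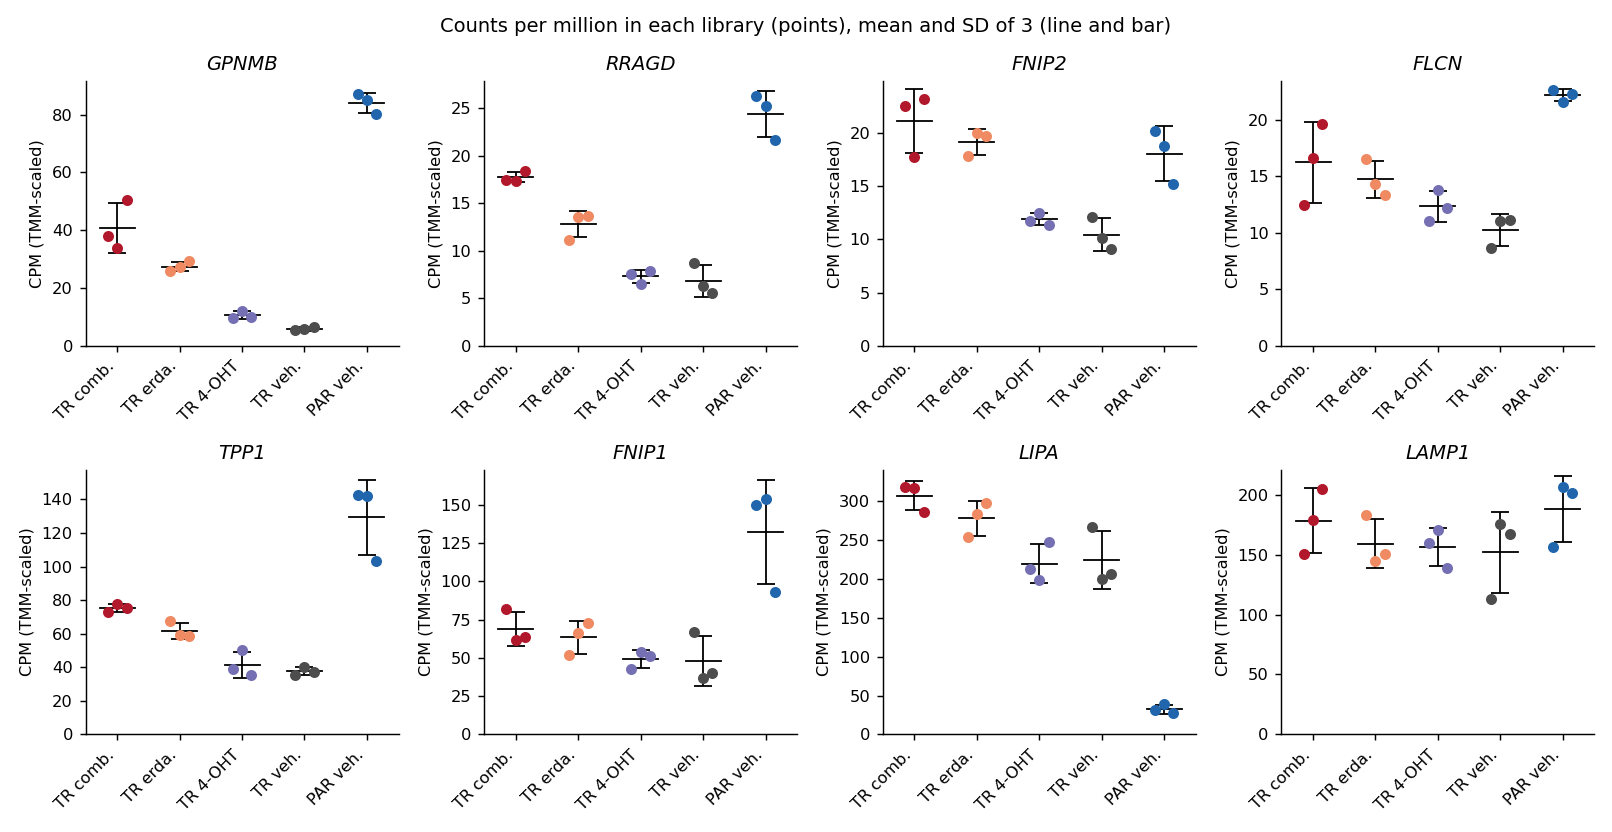
CPM of 8 genes in each library (points), with the mean and SD of 3 libraries (line and bar), in TR combination, TR erdafitinib, TR 4-OHT, TR vehicle and PAR vehicle cells. GPNMB, RRAGD, FNIP2 and TPP1 are higher in both erdafitinib groups than in TR 4-OHT and TR vehicle, and LAMP1 overlaps in all 5 groups.

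A few of these genes rose with erdafitinib in TR cells. Over both 4-OHT states together (TR combination and TR erdafitinib against TR 4-OHT and TR vehicle), GPNMB, RRAGD, TPP1 and FNIP2 rose and none fell. Those 4 are 9.52% of the 42, beside 1.71% of all genes tested, of which 0.777% rose. The genes described here were chosen with earlier results of these data known. This share and those in the comparisons below therefore describe the list and do not test it. For these 4 genes the 6 libraries with erdafitinib lay wholly above the 6 without it, which 3.38% of all genes did in either direction.

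GPNMB had 38.0, 33.9 and 50.3 CPM in TR combination cells and 25.9, 27.1 and 29.2 CPM in TR erdafitinib cells. The libraries without erdafitinib held 9.70, 12.04 and 9.76 CPM (TR 4-OHT), and the TR vehicle values are those given above. The pooled log2 fold change was 2.09 (SE 0.12, adjusted p = 7.463e-07), the second smallest p of 16210 genes. GPNMB counts were 102 to 192 a library in TR vehicle cells and 543 to 797 in TR erdafitinib cells.

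RRAGD had 17.5, 17.4 and 18.4 CPM in TR combination cells and 11.2, 13.6 and 13.7 CPM in TR erdafitinib cells, against 7.57, 6.55 and 7.86 CPM in TR 4-OHT cells (pooled 1.09, SE 0.14, adjusted p = 1.048e-03). TPP1 had 72.8, 77.7 and 75.5 CPM in TR combination cells and 67.3, 59.4 and 58.6 CPM in TR erdafitinib cells, against 39.0, 50.0 and 35.3 CPM in TR 4-OHT cells (pooled 0.79, SE 0.11, adjusted p = 2.062e-03). FNIP2 had 22.5, 17.7 and 23.2 CPM in TR combination cells and 17.8, 20.0 and 19.7 CPM in TR erdafitinib cells, against 11.8, 12.5 and 11.4 CPM in TR 4-OHT cells (pooled 0.85, SE 0.13, adjusted p = 3.093e-03). The combination libraries were above the erdafitinib libraries for GPNMB, RRAGD and TPP1, as for 5.36% of all genes in either direction, and the 2 groups overlapped for FNIP2.

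The other members of the Rag and folliculin branch pointed the same way without passing the test. FLCN was at 0.46 (SE 0.14, adjusted p = 0.153), FNIP1 at 0.45 (SE 0.17, adjusted p = 0.298) and RRAGC at 0.20 (SE 0.19). Of the hydrolases, LIPA was at 0.40 (SE 0.11, adjusted p = 0.111) and the cathepsin gene CTSC at 0.48 (SE 0.16, adjusted p = 0.193), CTSC with groups that did not overlap. Of the MiT/TFE factors, MITF stood at 0.51, TFE3 at -0.46 and TFEB at -0.36, none of them called. The 38 genes not called lay between -0.50 (CTSH) and 0.84 (CTSS, a gene with 1 to 34 counts a library), and 33 of them were within 0.5 of 0. The median of the 42 was 0.13, beside -0.01 for all genes.

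The count of 4 differed with 1 library, the tool and the treatment of the shared within-group direction. DESeq2 called 5, FLCN (adjusted p = 0.0410) being the addition, beside 3.58% of all genes. Without TR vehicle 1 the count was 7, and 445 genes were called in all, against 278 in the fit of 15 libraries, with LIPA (0.47, adjusted p = 0.0307) and FNIP1 (0.61, adjusted p = 0.0482) also higher and TFE3 lower (-0.60, adjusted p = 0.0490). With that direction as a covariate it was 12, beside 10.6% of all genes. GPNMB, RRAGD, TPP1 and FNIP2 were called in every alternative run for this comparison.

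**Figure D3:**
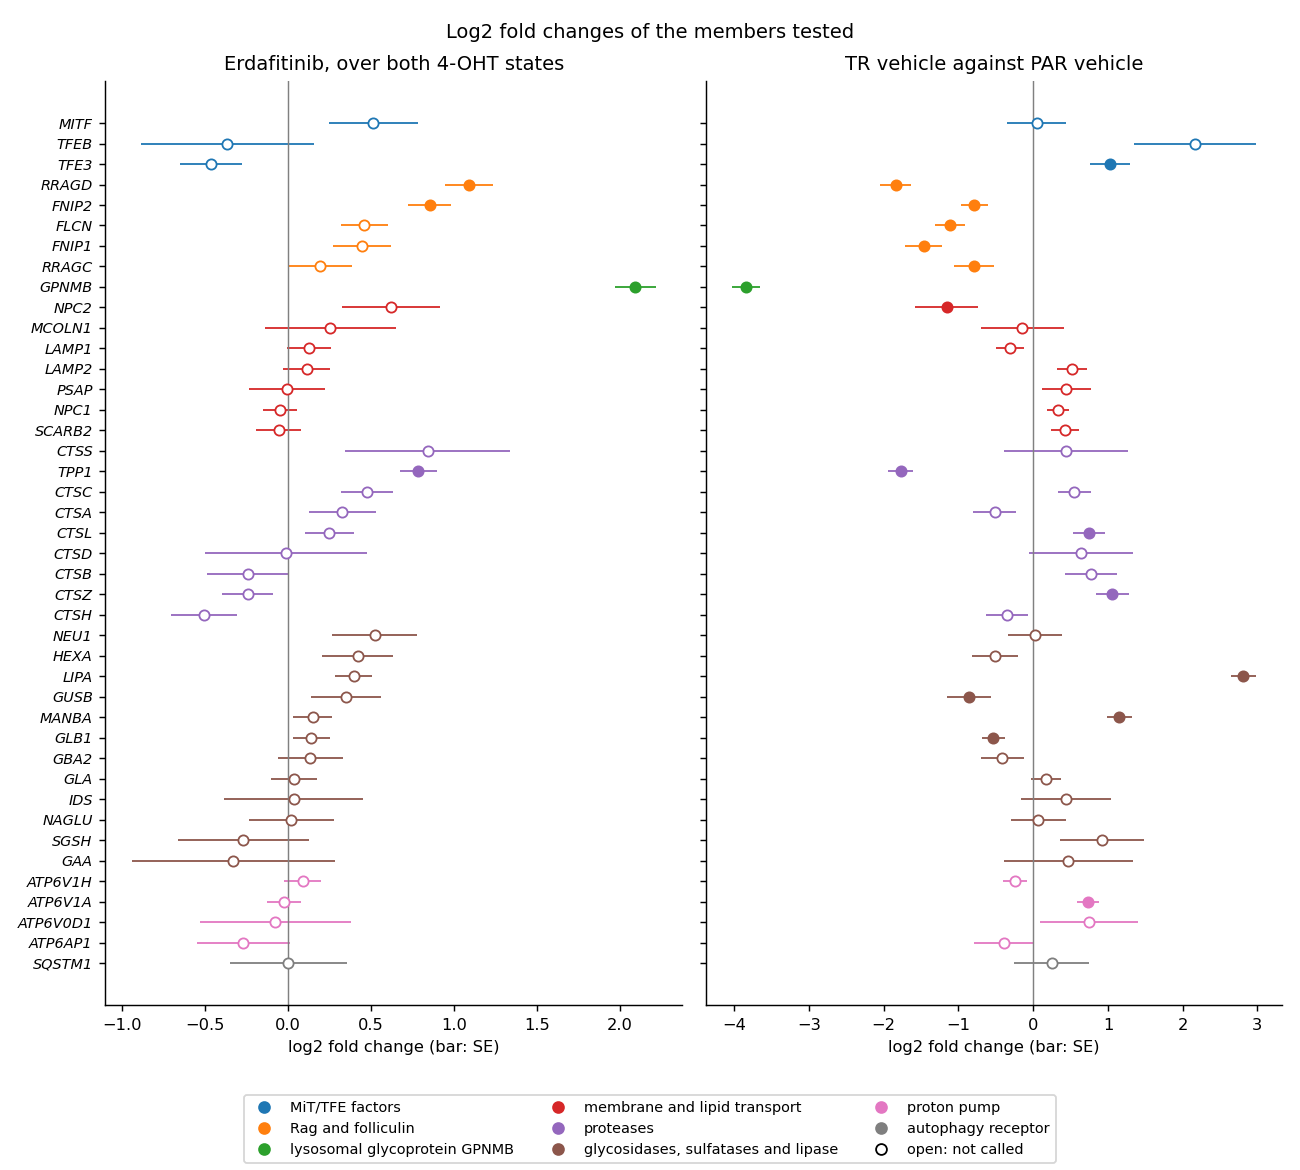
Log2 fold change and SE of the 42 genes tested, for erdafitinib over both 4-OHT states (left) and for TR vehicle against PAR vehicle (right), coloured by role, filled where adjusted p was under 0.05. The 4 filled points on the left are GPNMB, RRAGD, FNIP2 and TPP1, and the proton pump genes lie close to 0 on the left. Both panels use the TR vehicle libraries, with opposite sign, so they are shown side by side only.

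With erdafitinib alone (TR erdafitinib against TR vehicle), GPNMB was the 1 gene of the 42 called (2.38%, beside 0.0925% of all genes, 0.0432% higher), at 2.22 (SE 0.18, adjusted p = 5.606e-05), and had the smallest p of 16210 genes. With only these 2 groups fitted its adjusted p was 0.0538 at the same fold change, and no gene was called. RRAGD (0.91, adjusted p = 0.194), FNIP2 (0.88, adjusted p = 0.146) and TPP1 (0.71, adjusted p = 0.206) were not called, though their groups did not overlap, as those of 11.6% of all genes did not. DESeq2 called all 3 (adjusted p = 4.636e-03 for RRAGD, 2.779e-03 for FNIP2 and 0.0333 for TPP1). The 41 genes not called lay between -0.69 (GAA) and 0.91 (RRAGD).

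With erdafitinib added to 4-OHT (TR combination against TR 4-OHT), 3 of the 42 rose (7.14%, beside 0.642% of all genes called and 0.296% higher) and none fell. GPNMB was at 1.96 (SE 0.17, adjusted p = 8.694e-05), RRAGD at 1.27 (SE 0.20, adjusted p = 7.972e-03) and TPP1 at 0.87 (SE 0.16, adjusted p = 0.0220). FNIP2 was at 0.83 (SE 0.18, adjusted p = 0.0619) and was not called, while DESeq2 (adjusted p = 2.884e-03) and the fit with the within-group direction as a covariate (2.76e-03) called it. The TPP1 call was lost without TR 4-OHT 1 (adjusted p = 0.131), TR 4-OHT 3 (0.122), TR combination 1 (0.0649), TR combination 2 (0.0921) or TR combination 3 (0.0770), and with only these 2 groups fitted (0.1045). GPNMB and RRAGD were called whichever of the 6 libraries was left out. No difference between the 2 erdafitinib responses passed the test: the interaction was -0.26 (SE 0.24) for GPNMB, 0.36 (SE 0.28) for RRAGD, 0.16 (SE 0.23) for TPP1 and -0.04 (SE 0.26) for FNIP2, each with adjusted p = 1.

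4-OHT by itself left no called change. In TR 4-OHT against TR vehicle, in TR combination against TR erdafitinib, in both pooled and in the interaction, edgeR called 0 of the 42 and 0% of all genes. At an unadjusted p under 0.05 these comparisons had 127, 104, 93 and 134 genes (0.783%, 0.642%, 0.574% and 0.827% of all). Each share is below what a threshold of 0.05 passes when no gene changes, so the test was strict here. The lack of calls therefore does not show that 4-OHT had no effect. DESeq2 called 0, 18, 4 and 1. GPNMB was at 0.83 (SE 0.17, adjusted p = 1) in TR 4-OHT against TR vehicle, with the smallest p of all genes and with groups that did not overlap (3.65% of all genes). It was at 0.57 (SE 0.17, adjusted p = 1) in TR combination against TR erdafitinib, where it was 24th by p. Over both it was at 0.70 (SE 0.12, adjusted p = 0.665), with the smallest p of all genes. DESeq2 called the pooled value (adjusted p = 3.997e-03). In the pooled comparison 41 of the 42 genes lay within 0.5 of 0, GPNMB being the exception.

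With both drugs, GPNMB, TPP1 and all genes of the Rag and folliculin branch but FNIP2 averaged below their PAR vehicle means. GPNMB averaged 40.7 ± 8.55 CPM in TR combination cells and 84.1 ± 3.44 CPM in PAR vehicle cells, 48.5% of that mean. RRAGD reached 72.7%, TPP1 58.3%, FLCN 73.2%, RRAGC 70.9% and FNIP1 52.2% of the PAR vehicle mean. FNIP2 was at 117% of the PAR vehicle mean. These shares are descriptions, and the difference between TR combination and PAR vehicle was not tested.

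The comparison of TR vehicle with PAR vehicle and that of TR combination with TR 4-OHT share no library. All 10 genes that were lower in TR vehicle cells had positive values in TR combination against TR 4-OHT, among them FNIP1 (0.49), NPC2 (0.67), GUSB (0.57), FLCN (0.40), RRAGC (0.21) and GLB1 (0.12), none of these 6 called. Among all 2598 genes that were lower in TR vehicle cells, 59.5% were positive. Of the 26 genes described here that were not called between the lines, 20 were positive too (76.9%, beside 51.5% of all genes not called). Positive values were thus not confined to the genes that were lower in TR vehicle cells. Of the 6 genes that were higher in TR vehicle cells, 3 were positive (LIPA at 0.48, CTSL at 0.42 and MANBA at 0.29) and 3 negative, TFE3 at -0.55 being the lowest. Among all 3220 genes that were higher in TR vehicle cells, 42.4% were positive, so this split is near the background. TR erdafitinib against TR vehicle uses the same TR vehicle libraries as the comparison with PAR cells, so the 2 are given only side by side: for RRAGD 0.91 and -1.84, for TPP1 0.71 and -1.78, for GPNMB 2.22 and -3.84.

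**Figure D4:**
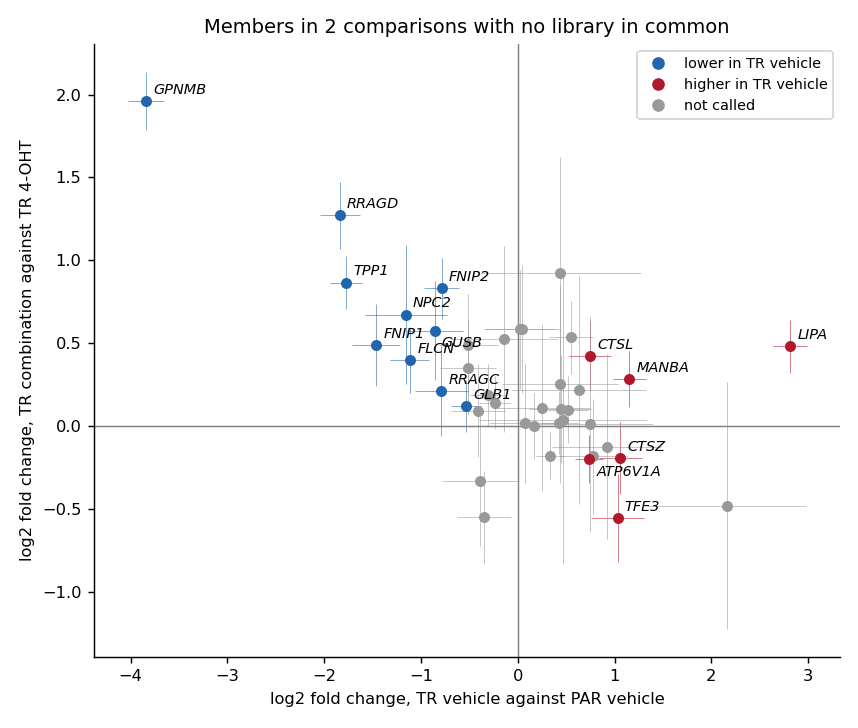
Log2 fold change with SE of the 42 genes in TR vehicle against PAR vehicle (x axis) and in TR combination against TR 4-OHT (y axis), which have no library in common. The 10 genes lower in TR vehicle (blue) all lie above 0 on the y axis, with GPNMB, RRAGD and TPP1 highest, while the 6 higher ones (red) fall on both sides and 20 of the 26 not called also lie above 0.

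Beyond the 43 genes, the rest of the pathway was taken from 5 further lists. In TR vehicle against PAR vehicle, 3 of 18 other proton pump subunit genes rose and 1 fell, 7 of 32 other hydrolase and cofactor genes rose and 2 fell, 4 of 24 other lysosomal membrane genes rose and 5 fell, and 4 of 22 autophagy genes rose and 6 fell. Of 25 mTORC1 and nutrient-sensing genes none rose and 5 fell (20% called). The lists had 20% to 45.5% of their genes called, beside 35.9% of all genes (19.9% higher and 16% lower), and the mTORC1 list had the lowest share. The mTORC1 genes with the smallest p were MIOS, a subunit of the GATOR2 complex that relays amino acid signals to the Rags (-1.54, adjusted p = 1.574e-04), TSC1, whose product inhibits mTORC1 (-0.69, adjusted p = 3.918e-03), and the GATOR2 subunit gene SEH1L (-0.75, adjusted p = 0.0158). The list medians ran from -0.14 (mTORC1) to 0.06 (proton pump), beside 0.07 for all genes.

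In the other lists, the autophagy genes with the smallest p were WIPI1, which acts in autophagosome formation (-2.23, adjusted p = 3.897e-08), and the autophagy receptor genes OPTN (1.57, adjusted p = 2.150e-06) and TAX1BP1 (-1.43, adjusted p = 1.219e-04). ARSB, an arylsulfatase that degrades dermatan and chondroitin sulphate, rose most clearly of the hydrolases (2.46, adjusted p = 3.549e-06), before GM2A, the GM2 ganglioside activator (0.84, adjusted p = 8.944e-04), and GNPTAB, needed for the mannose 6-phosphate tag on hydrolases (0.94, adjusted p = 4.567e-03). Of the membrane genes, TMEM106B fell (-0.95, adjusted p = 1.933e-03) and HGSNAT rose (0.48, adjusted p = 2.915e-03). The proton pump genes ATP6V1B2 (0.81, adjusted p = 8.446e-03) and ATP6V0A4 (1.58, adjusted p = 0.0467) rose and ATP6V1G1 fell (-0.91, adjusted p = 0.0348).

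LAMP3, a lysosomal membrane gene that is also known to be induced by interferon, was the 1 gene of these 5 lists called with erdafitinib, beside 1.71% of all genes over both 4-OHT states and 0.642% in TR combination against TR 4-OHT, so the lists as a whole were not above the background over both states. It had 105.3, 74.4 and 121.2 CPM in TR combination cells, against 12.9, 8.65 and 12.6 CPM in TR 4-OHT cells (3.13, SE 0.26, adjusted p = 5.665e-05). It had 35.8, 26.9 and 33.1 CPM in TR erdafitinib cells, against 16.1, 13.5 and 9.71 CPM in TR vehicle cells, a change of 1.29 that was not called (adjusted p = 0.0787). PAR vehicle cells had 91.1, 86.9 and 64.3 CPM, and LAMP3 was lower in TR vehicle cells (-2.62, adjusted p = 2.078e-06). Over both 4-OHT states none of the other 120 genes tested in the 5 lists was called, and their medians lay between -0.05 and 0.02, beside -0.01 for all genes.

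**Figure D5:**
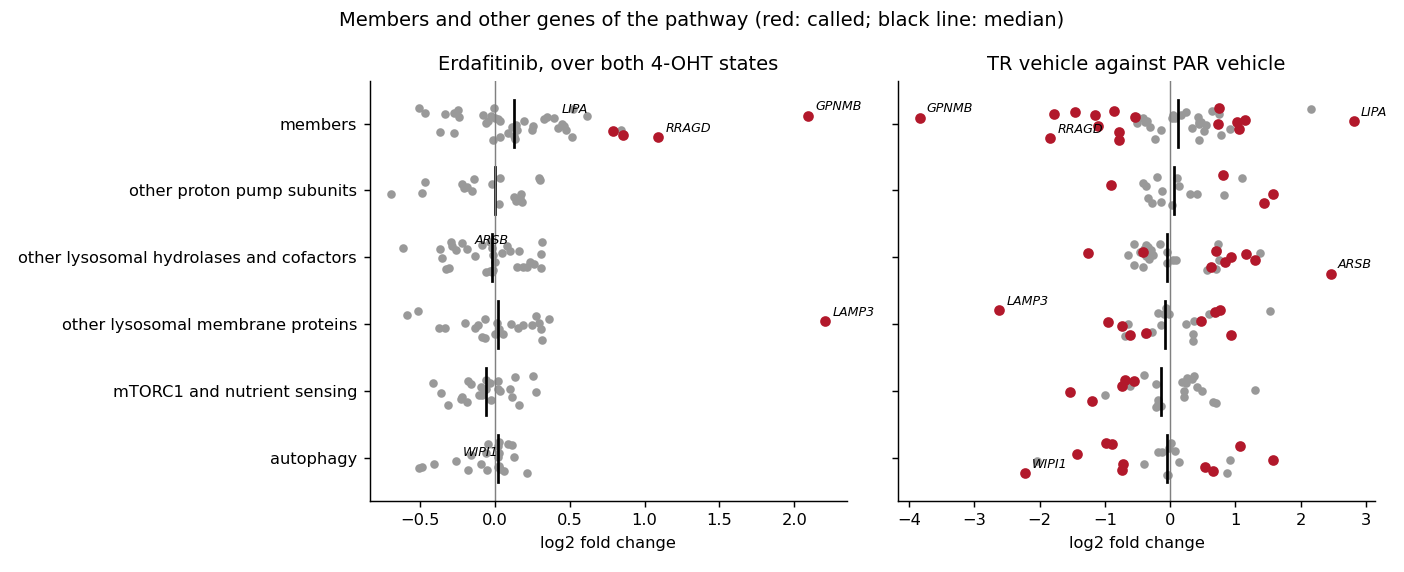
Log2 fold changes of the 42 genes (top row, named members) and of the 5 further pathway lists, for erdafitinib over both 4-OHT states (left) and TR vehicle against PAR vehicle (right), with 1 point a gene, red where called and a black line at the median. LAMP3 is the 1 red point of the 5 lists on the left, and each list has red points on the right.

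GPNMB is also expressed in melanocytes and macrophages, so markers of both were read in the same libraries. The summed level of 9 melanocyte markers was 51.9 to 63.7 CPM in TR combination cells, 57.0 to 60.1 CPM in TR erdafitinib cells, 34.2 to 39.6 CPM in TR 4-OHT cells, 30.8 to 43.8 CPM in TR vehicle cells and 30.2 to 53.1 CPM in PAR vehicle cells. Most of this was TYRP1, a melanosomal enzyme gene and a known MITF target, which rose with erdafitinib over both 4-OHT states (0.80, SE 0.15, adjusted p = 0.0124). The melanocyte genes MLANA, TYR and DCT were at 0 counts in all 5 groups. PMEL, TYRP1 and GPR143 had counts in all 5 groups, and 3 of the 9 melanocyte markers passed the filter. Of 12 macrophage markers 1 passed the filter, and TYROBP and C1QB were at 0 in all groups. Between TR vehicle and PAR vehicle cells, TYRP1 was at -0.35 (adjusted p = 0.222) and was not called. The part of such cells or of TYRP1 in the GPNMB values was not tested. In bulk RNA, fewer cells with a transcript and less of it in each cell cannot be told apart.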

How the data were processed

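Total RNA of 15 cultures was sequenced as stranded paired-end libraries, per the labels' protocols. The authors deposited 1 file a library with raw read counts per gene, made with HISAT2 2.1.0 on GRCh38 and featureCounts 1.4.6-p1, per the submitters' processing notes. The file headers name featureCounts 2.0.1 and the Ensembl 104 annotation, with reverse-stranded counting.

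From these counts, edgeR 4.0.16 (R 4.3.3) kept 16210 genes (filterByExpr), scaled libraries by TMM (factors 0.907 to 1.10), fitted all 15 libraries in 1 model of 5 group means and tested 8 contrasts by quasi-likelihood F test, with Benjamini-Hochberg adjustment over all genes and calls at adjusted p under 0.05. CPM use TMM-scaled totals. TPM use the deposited exon length. A standard error is the log2 fold change over the square root of F. The test was run on simulated counts first. Alternatives were DESeq2 1.42.0, other scaling, filters and samples, a replicate block, and 1 library left out at a time.

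The 43 genes, further lists, motifs and tests were chosen with earlier results of these data known. Per-library values are given for a selection of the genes. Called genes such as MANBA and CTSZ are given without them, and TFEB and GAA, which were not called, are given with them. From the further lists, at most 3 called genes a list are named. SAMTOR was not matched to a counted gene ID and is not analysed here. Promoters are from RefSeq. Replicate numbers did not pair libraries.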

Additional observations from a re-analysis of the deposited data

How the results depend on the processing

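In TR vehicle against PAR vehicle the count of genes called was 9 with only these groups fitted (3408 of all genes called) and 27 with the first within-group direction as a covariate (54.8% of all genes called). In TR erdafitinib against TR vehicle it was 0 with only these groups fitted, 4 by DESeq2 (0.537% of all genes) and 4 with that covariate (1.71%). The covariate gave 8 in TR combination against TR 4-OHT (4.6%) and 12 for erdafitinib over both 4-OHT states (10.6%), and DESeq2 gave 1 for 4-OHT over both erdafitinib states (0.0247%). The cause was not tested. Leaving out 1 library gave 14 to 16, 1 to 1, 2 to 3 and 4 to 7 genes in the 4 comparisons with calls, in the order TR vehicle against PAR vehicle, TR erdafitinib, TR combination against TR 4-OHT and erdafitinib pooled, and 0 in the others. Over all genes, the calls were 4695 to 6266, 2 to 17, 45 to 63 and 140 to 445 in that order. In TR 4-OHT against TR vehicle, TPP1 was at -0.022 without the 2 shallowest libraries and from -0.023 to 0.23 with 1 library left out, and RRAGD from -0.031 to 0.32. The FNIP2 interaction was from -0.16 to 0.070. None of these was called. Genes called overall were 15 in TR erdafitinib against TR vehicle, against 87 by DESeq2, and 278 for erdafitinib pooled, against 580 by DESeq2. Same-numbered libraries correlated between -0.83 and 0.77, and 7 of 15 libraries correlated best with their own number. With the replicate block, genes called among the 42 were 15, 1, 3 and 4 in the same order, beside 34.2%, 0.0555%, 0.469% and 1.15% of all genes. Genes with few counts, such as TFEB in PAR cells, limit what can be called.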
